A study of Mus musculus with 13 samples.

Results

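The cluster of miR-144 and miR-451 is a short stretch of mouse chromosome 11 that encodes mmu-miR-451, mmu-miR-144-3p and mmu-miR-144-5p (mmu-, the prefix for mouse, is left out below), and its 3 mature miRNAs were followed here over 13 microarrays. They were chosen by name from the 1122 mouse miRNAs on the array, with earlier results of these data known. The arrays measured miRNAs in total RNA of C57BL/6 mouse cells, 1 sample per array, with Cy3 label. DN are thymocytes sorted as CD4- CD8- and DP are thymocytes sorted as CD4+ CD8+, both from thymus. ES is the early and LS the late stage of a T-ALL (acute lymphoblastic leukaemia of T cells) that arose from N1ICD, known as the active intracellular part of Notch1, in bone marrow chimeras, and both were sorted as CD4+ CD8+ spleen cells. These 4 groups have 3 biological replicates each. M295 is a cultured mouse T-ALL line of C57BL/6 origin with 1 array. The labels name no sorting marker beyond CD4 and CD8, no promoter or vector for N1ICD, and no age. Leukaemia came from spleen and thymocytes from thymus, so disease and organ cannot be told apart.

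The locus is best known from red blood cell formation. It is transcribed as 1 primary transcript under the erythroid transcription factor GATA1, and its miRNAs accumulate to very high levels in erythroblasts and red cells, where they support late maturation and protect against oxidative stress. miR-144 is cut from its hairpin by Drosha and Dicer like most miRNAs, whereas the miR-451 hairpin is too short for Dicer and is cut by the Argonaute protein Ago2. In T cells, miR-451 has been reported as a miRNA repressed downstream of Notch1 in mouse T-ALL, with Myc among its targets.

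The mature sequences and both hairpins are shown because the 3 miRNAs differ in seed and the hairpins differ in shape. RefSeq (build GRCm38.p6) held all 3 members, and it lists the miR-451 of the array as miR-451a. Seeds, bases 2 to 8 counted from the 5′ end, are in capitals.
miR-451 (chr11:78073186-78073207, plus strand): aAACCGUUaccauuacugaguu
miR-144-3p (chr11:78073047-78073066, plus strand): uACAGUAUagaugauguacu
miR-144-5p (chr11:78073010-78073032, plus strand): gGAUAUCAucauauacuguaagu
Each of the 3 seeds was found in 0 other names among 1679 mature mouse miRNAs in the table, so the members share a transcript and not a seed. In the hairpins, capitals mark the mature miRNAs.
Mir451a hairpin (chr11:78073170-78073241, plus strand): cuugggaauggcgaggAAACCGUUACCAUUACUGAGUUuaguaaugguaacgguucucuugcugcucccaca
Mir144 hairpin (chr11:78073005-78073070, plus strand): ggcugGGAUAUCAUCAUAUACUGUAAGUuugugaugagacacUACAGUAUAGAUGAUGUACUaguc
The 2 hairpins lie 99 bases apart. In the fold predicted by RNAfold, the mature miR-451 occupied positions 17 to 38 of its hairpin and so contained the whole 4-base loop at positions 35 to 38. The 2 arms of miR-144, at positions 6 to 28 and 43 to 62, lay on either side of a 6-base loop. RefSeq also lists Mir451b on the opposite strand, overlapping all 72 bases of the Mir451a hairpin; its miRNA was not analysed here.

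Each member was measured by 2 probes of 20 spots each. Intensities below are background-subtracted and averaged over spots and probes. The log2 values are those intensities relative to the array's 75th percentile of 108 mouse miRNAs above background on all 12 primary arrays, with a floor of -7.59. A miRNA counted as above background where 1 of its probes had at least 50% of its usable spots marked by the scanner software as well above background. Negative control spots had an SD of 19.0 on ES 1 and of at most 7.11 on the other arrays. Of the lineage markers, miR-142-3p, a miRNA of all blood cells, was above background on all 13 arrays. miR-181a-5p, which is high in DP thymocytes, was at 1.88 ± 0.08 in DP against -0.83 ± 0.15 in DN (SD, n = 3 each).

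miR-451 was high in DN thymocytes, near background in DP thymocytes, and spread from the DP range to above the DN range in the leukaemias. In DN its mean intensity was 1469, 1303 and 960 on DN 1, DN 2 and DN 3. In DP it was 40.7, 43.0 and 19.2. DP 3 did not count as above background, though the scanner software marked miR-451 as detected there. The DN and DP arrays did not overlap, and within each group the highest log2 value lay 0.43 and 0.96 above the lowest. In ES the intensities were 326, 27.3 and 750 on ES 1, ES 2 and ES 3. In LS they were 558, 2942 and 138 on LS 1, LS 2 and LS 3. One leukaemia, ES 2, thus lay within the range of the DP arrays, LS 2 lay above every DN array, and the other 4 lay between DP and DN. From the lowest to the highest of the 6 leukaemias the scaled signal spanned 94.4-fold. M295 had an intensity of 17.1, not above background, and its log2 value of -7.00 was below all 12 primary arrays. In the authors' deposited table, whose log2 values have the same median on every array, miR-451 was at 9.97, 9.88 and 9.68 in DN, 5.21, 4.97 and 4.46 in DP, 8.46, 4.96 and 8.01 in ES, 8.01, 10.44 and 6.41 in LS and 3.95 in M295. There, too, ES 2 was within the DP range and LS 2 above every DN array.

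**Figure D1:**
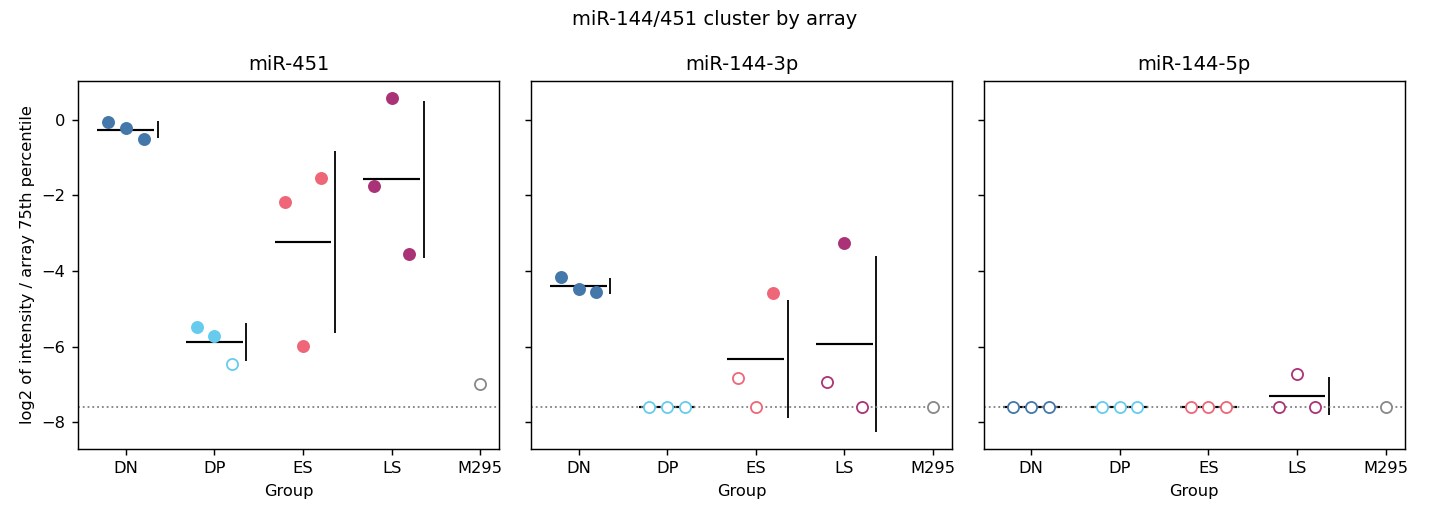
Signal of miR-451, miR-144-3p and miR-144-5p on each array, by group, as log2 of intensity over the array's 75th percentile; filled points are above background, open points are not, horizontal lines are group means, vertical lines are 1 SD either side (n = 3 arrays), and the dotted line is the floor at -7.59. The DN arrays lie close together for miR-451 and miR-144-3p, the DP arrays lie low, and the ES and LS arrays spread from the DP range to the DN range or above.

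In order of the group means, miR-451 stood at -0.26 ± 0.22 in DN, -1.58 ± 2.07 in LS, -3.23 ± 2.41 in ES and -5.89 ± 0.50 in DP (log2, SD, n = 3 each). No pair of neighbours in this order passed the test. In limma, LS minus DN was -1.32 (adjusted p = 0.423), LS minus ES was 1.65 (adjusted p = 0.463), and ES minus DP was 2.66 (adjusted p = 0.0852). The SD was thus larger in both leukaemic groups than in both thymocyte groups, a difference that was not tested.

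The same pattern was visible in single spots. The brighter miR-451 probe read 1875 ± 66.7 over its 19 usable spots on DN 1, 51.0 ± 4.21 over 16 on DP 1 and 3786 ± 109 over 19 on LS 2 (SD over spots of 1 array, which is technical). The dimmer probe read 1062 ± 38.5, 30.5 ± 6.99 and 2099 ± 71.9 on the same arrays. The ratio of the brighter to the dimmer miR-451 probe stayed between 1.67 and 2.06 over the 13 arrays, so the 2 probes changed nearly in proportion from array to array.

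**Figure D2:**
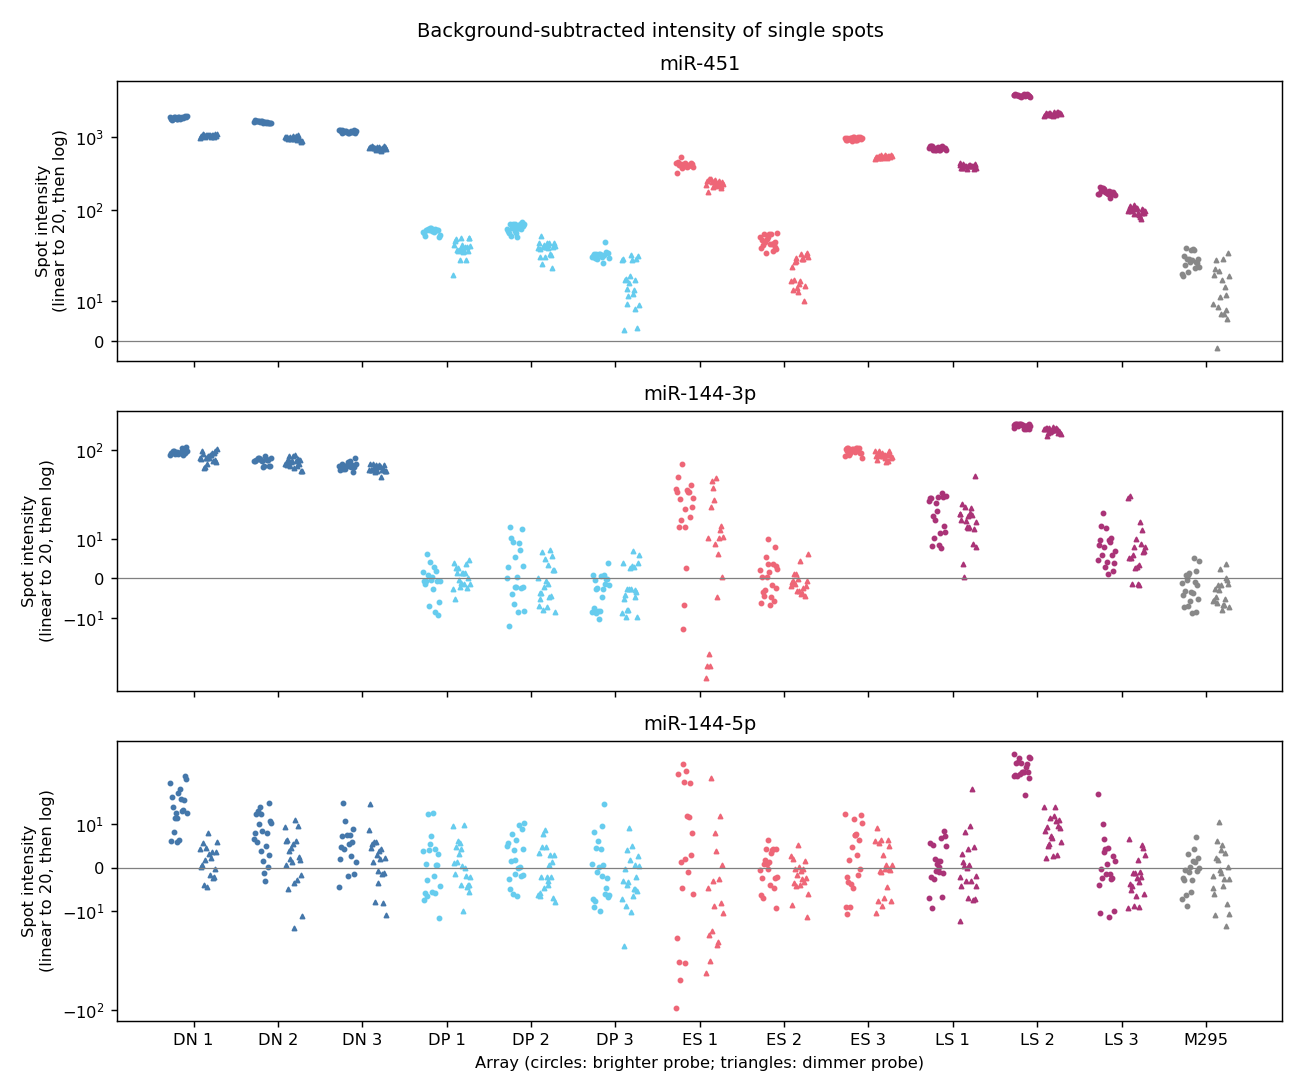
Background-subtracted intensity of every usable spot for the 3 members on the 13 arrays, on an axis that is linear up to 20 and logarithmic beyond; circles are the brighter probe of each miRNA and triangles the dimmer. Spots of miR-451 form tight bands on each array, miR-144-3p stands clear of 0 on DN 1, DN 2, DN 3, ES 3 and LS 2, and miR-144-5p is raised most on LS 2.

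miR-144-3p, the guide strand of miR-144, followed miR-451 at a lower signal. Its mean intensity was 86.0, 68.5 and 57.1 on the 3 DN arrays. On the 3 DP arrays it was -0.371, 0.0135 and -2.67, that is, at background. In ES it was 13, -0.368 and 90.0 on ES 1, ES 2 and ES 3, and in LS 15.4, 204 and 7.45 on LS 1, LS 2 and LS 3. It was above background on 5 of the 12 primary arrays: DN 1, DN 2, DN 3, ES 3 and LS 2. Those are the 5 arrays with the highest miR-451 values, from -1.53 on ES 3 to 0.58 on LS 2. LS 1 and ES 1 come next for miR-451 (-1.76 and -2.17), and there the scanner's total signal for miR-144-3p was 12 (error 4.59) and 7.33 (error 6.39), not detected by the software. On M295 the intensity was -2.82.

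miR-144-5p, the other strand of the same hairpin, was above background on 0 of the 13 arrays. Its mean intensity was 7.64, 4.37 and 3.07 on the DN arrays, at most 0.628 on the DP arrays and at most 0.811 on the ES arrays. On LS 2, the array with the most miR-451 and miR-144-3p, it was 18.7, with 8 of 19 usable spots of the brighter probe well above background. LS 1 and LS 3 read 0.297 and -1.03, and M295 read -1.39. Between the 6 T-ALL and the 6 thymocyte arrays the log2 values differed by 0.15 (exact permutation test, two-sided, p = 1), with 5 of 6 T-ALL and 6 of 6 thymocyte arrays at the floor. Since only LS 2 was off the floor, every split gave a difference of the same size. This p-value was thus fixed in advance and decides nothing. With the scaled values and no floor the exact permutation p was 0.781, an alternative chosen after the data were seen.

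The comparison of DN with DP asks how the cluster changes as thymocytes mature. miR-451 was 49.4-fold higher in DN (log2 difference 5.63, SE 1.17, 95% interval 3.03 to 8.22; limma adjusted p = 0.00466). miR-144-3p was 8.63-fold higher in DN by a bound, used because 0 of the 3 DP arrays were above background (measured means -4.40 in DN and the floor of -7.59 in DP, the bound being set at -7.51 in DP). The bound is not strict, because on LS 1 miR-144-3p was at -6.94 and not above background. Its fitted log2 difference was 3.19 (SE 1.02, adjusted p = 0.0377), and 2.19 (4.57-fold, not called) with the floor 2-fold higher. For both miRNAs all 3 DN arrays lay above all 3 DP arrays. Separation of this kind was not counted over all tested miRNAs in any comparison, so it only describes the members. Both tested members were thus called higher, and 10.5% of the 229 tested miRNAs were called higher in DN (29.3% in either direction), with a median log2 difference of 0.15 over all tested miRNAs. The tested miRNAs are those that rose above background in the whole of some group. miR-144-3p passed this filter only through DN, the group where it was highest, so it had to differ there and its call gives no independent support. With no filter its adjusted p was 0.256. In bulk RNA, a change in the number of cells carrying a miRNA and a change in its amount per cell cannot be told apart.

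The miR-451 value was 5.43 within slide 1 (1 DN and 1 DP array), 5.72 within slide 2 and 5.63 with slide as a block (adjusted p = 0.00708). Each slide alone left some groups with 1 array, which adds nothing to the estimate of the spread. For fits within a slide only the size of the difference is therefore given. After normexp background correction, which adds an offset of 50, the miR-451 value was 3.88 (14.8-fold, adjusted p = 0.00522) and that of miR-144-3p 1.31 (2.48-fold, adjusted p = 0.0246). The miR-451 difference remained called without any 1 array (5.34 to 5.82). The miR-144-3p call ended without any 1 of the 6 DN and DP arrays, at a log2 difference of 3.07 to 3.28 and adjusted p of 0.0813 (without DN 3) to 0.107 (without DN 1). It also ended when slide was a block (0.0509). The fit takes 1 spread for all 4 groups. When only DN and DP entered the fit, a setting added after the data were seen, the same differences had SE of 0.26 for miR-451 and 0.12 for miR-144-3p, and adjusted p of 1.55e-05 and 1.16e-05. The second rests on 3 DP values set to the floor.

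Other miRNAs differed between DN and DP along with the cluster. miR-126-3p, a miRNA of endothelial cells, platelets and early progenitors, was above background on 3 of 3 DN arrays and 0 of the other 9 primary arrays (DN -4.66 ± 0.03, DP -6.60 ± 0.09; log2 difference 1.94, adjusted p = 0.00559). It too passed the filter only through DN, so this call gives no independent support and the difference is one against background. Its partner miR-126-5p was not above background on any array, and the summed scaled signal of both was 4.03 to 4.25% of the 75th percentile in DN and 1.04 to 1.14% in DP. The myeloid miRNA miR-223-3p, named here after its values were seen, was above background on 3 of 3 DN and 0 of 3 DP arrays (-5.10 ± 0.21 and -7.13 ± 0.29; adjusted p = 0.468), and its partner miR-223-5p on 0 of 12. The summed signal of the myeloid pair was 2.51 to 3.37% in DN and 0.630 to 0.901% in DP. The part of other cell types in the DN signal of the cluster was not tested.

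The comparisons of the leukaemias with DP, their counterpart in surface markers, ask how the cluster stands in Notch1-driven disease. In LS, miR-451 was 19.8-fold higher than in DP (log2 difference 4.31, SE 1.17, 95% interval 1.71 to 6.90; limma adjusted p = 0.0109), with all 3 LS arrays above all 3 DP arrays. miR-144-3p, with 1 of 3 LS arrays above background, did not pass the test (log2 difference 1.66 with DP at the floor, SE 1.02, adjusted p = 0.179), and its difference was 0.33 without LS 2 and 2.49 without LS 3. Thus 1 of the 2 tested members was called higher in LS, where 32.3% of all tested miRNAs were called higher (58.5% in either direction) and their median log2 difference was 0.19. The size of the miR-451 difference depended on single leukaemias: it was 3.23 without LS 2 (9.36-fold) and 5.29 without LS 3 (39.3-fold), called in both. With normexp it was 2.78 (6.87-fold, adjusted p = 0.0148). Within slide 1 it was 4.90, within slide 2, with only LS 3, 2.52, and with slide as a block 4.20 (adjusted p = 0.0204). It was not called when all 1122 mouse miRNAs were tested (adjusted p = 0.0948).

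In ES, miR-451 did not pass the test against DP (log2 difference 2.66, SE 1.17, 95% interval 0.07 to 5.25; adjusted p = 0.0852), and ES 2 overlapped the DP arrays. It was called without ES 2 (4.03, adjusted p = 0.00685) and when scaled over all mouse miRNAs (3.20, adjusted p = 0.0332). The difference was 1.42 within slide 1 and 4.55 within slide 2, which holds ES 3 alone of the ES arrays. miR-144-3p, with 1 of 3 ES arrays above background, did not pass the test (log2 difference 1.26 with DP at the floor, SE 1.02, adjusted p = 0.322), and its difference was 0.38 without ES 3 and 1.88 without ES 2. So limma called 0 of the 2 tested members in ES, against 46.3% of all tested miRNAs called. At an unadjusted p under 0.05 it was 1 of the 2 members, against 128 of the 229 tested miRNAs. ES, LS and DN were compared with the same 3 DP arrays.

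**Figure D3:**
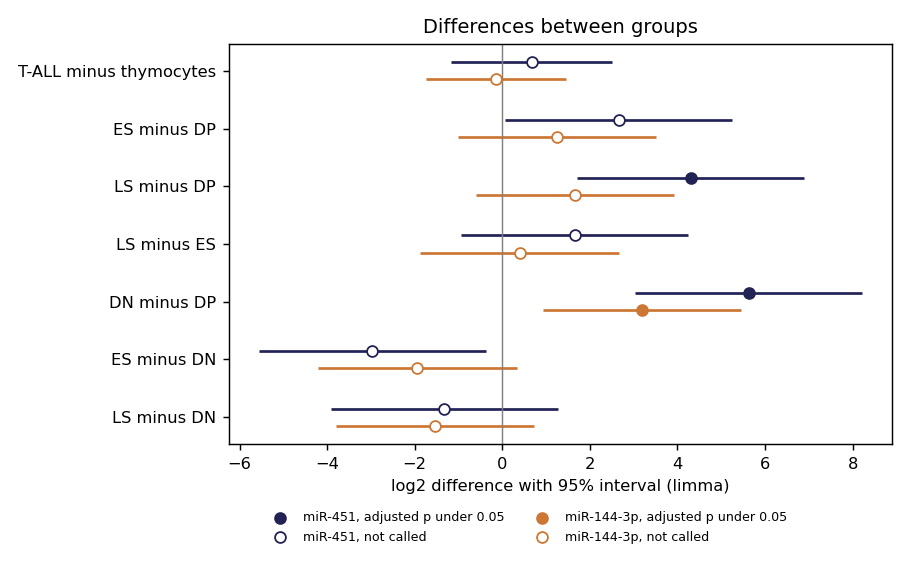
Fitted log2 difference of miR-451 and miR-144-3p in each of 7 comparisons, with 95% intervals from limma; filled points have an adjusted p under 0.05. The intervals of miR-451 lie above 0 for DN minus DP, LS minus DP and, narrowly, ES minus DP (0.07 to 5.25), and only the first 2 are called.

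Against DN, the difference of neither leukaemic stage passed the test. miR-451 in ES was at -2.97 from DN on the log2 scale (SE 1.17, 95% interval -5.56 to -0.37, adjusted p = 0.158), with all 3 ES arrays below all 3 DN arrays. In LS it was at -1.32 (95% interval -3.91 to 1.27), with LS 2 above every DN array and the other two below. All 3 ES arrays were also below all 3 DN arrays for miR-144-3p, but narrowly, with ES 3 at -4.59 and DN 3 at -4.57. Before scaling, the ES 3 intensity of 90.0 was above the 86.0, 68.5 and 57.1 of the DN arrays. The difference of miR-144-3p from DN was -1.94 in ES (95% interval -4.20 to 0.33, adjusted p = 0.230) and -1.54 in LS (-3.80 to 0.73, adjusted p = 0.298). Limma called 0 of the 2 members in ES minus DN, where 6.55% of all tested miRNAs were called, and 0 in LS minus DN, where 33.2% were. Of the members, an unadjusted p under 0.05 was seen only for miR-451 in ES (0.0287). Of the 229 tested miRNAs, 62 had one in ES minus DN and 96 in LS minus DN. Without LS 2, miR-144-3p was called lower in LS than in DN (log2 difference -2.87, adjusted p = 0.0259), with LS 1 and LS 3 not above background and the filter passed only through DN, which favours such a call. For miR-451, the ES difference was -1.59 without ES 2 and -3.82 without ES 3, and the LS difference -2.40 without LS 2 and -0.33 without LS 3, none called.

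Between the stages, LS minus ES was 1.65 for miR-451 (95% interval -0.94 to 4.24) and 0.40 for miR-144-3p (-1.87 to 2.67, adjusted p = 0.869), where scaling over all mouse miRNAs turned the direction (-0.03). Limma called 0 of 2, against 2.62% of all tested. At an unadjusted p under 0.05 it was also 0 of 2, against 34 of the 229 tested miRNAs. The difference for miR-451 was 3.49 within slide 1 and turned within slide 2, where LS 3 lay 2.03 below ES 3. It was 0.27 without ES 2 and 2.64 without LS 3, not called in either. Over all leukaemias, T-ALL minus thymocytes was 0.67 for miR-451 (95% interval -1.16 to 2.50, adjusted p = 0.515) and -0.14 for miR-144-3p (-1.74 to 1.46, adjusted p = 0.881; 0.14 after normexp background correction). This comparison called 57.2% of all tested miRNAs and 0 of these 2. At an unadjusted p under 0.05 it was 147 of the 229 tested miRNAs and again 0 of these 2. The thymocyte average joins DN and DP, which stood 5.63 apart for miR-451, and its miR-451 value was 0.13 without LS 2 and 1.36 without ES 2, not called in either.

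miR-451 and miR-144-3p varied together. Over the 12 primary arrays Pearson's r was 0.89 (permutation p = 7e-04, adjusted over 3 pairs 0.002) and Spearman's rho was 0.96 (p = 1e-05, the smallest that 100000 resamples can give, adjusted 3e-05). The resampling exchanged arrays across groups, so these p-values also count the differences between group means. Without DP 3 and ES 2, the 2 arrays farthest from the median of miR-451, r was 0.89. It was 0.87 within slide 1, 0.92 within slide 2 (6 arrays each) and 0.84 after each group's mean was subtracted. Among the 6 leukaemias alone r was 0.82 (exact permutation p = 0.04) and rho 0.93 (p = 0.02), a subset chosen after the data were seen; without ES 2 and LS 2 r over the other 4 was 0.72. Since miR-144-3p was not above background on 7 of the 12 arrays, many of its values here were at or near the floor. How far the coefficients rest on which arrays carry miR-144-3p at all was not tested. In the authors' deposited table r over the 12 primary arrays was 0.97. miR-451 and miR-144-5p gave r = 0.40 (permutation p = 0.2, adjusted 0.2) and miR-144-3p with miR-144-5p r = 0.52 (p = 0.08, adjusted 0.1), where all but LS 2 were at the floor.

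**Figure D4:**
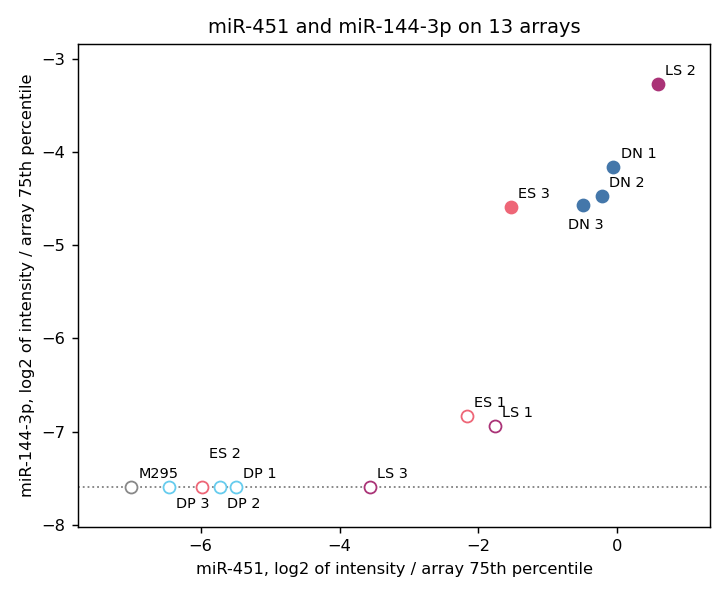
miR-451 against miR-144-3p on the 13 arrays, both as log2 of intensity over the array's 75th percentile; filled points have miR-144-3p above background, and the dotted line is the floor at -7.59. The 5 arrays with miR-144-3p above background, DN 1, DN 2, DN 3, ES 3 and LS 2, have the 5 highest values of miR-451.

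The proportion of the 2 miRNAs can be followed on the 5 arrays where both were above background, free of the scaling between arrays. The log2 ratio of the miR-451 to the miR-144-3p intensity was 4.09, 4.25 and 4.07 on DN 1, DN 2 and DN 3 (mean 4.14, SD 0.10). It was 3.85 on LS 2 and 3.06 on ES 3. Probe brightness enters each ratio, so only differences between arrays can be read. LS 2 was 1.22-fold below the DN mean and ES 3 was 2.11-fold below it. There is 1 array of each leukaemia stage in this set, so these are values without a test.

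Likeness to miR-451 was read as Pearson's r over the 12 primary arrays. Among 189 miRNAs above background on at least 6 of the 12 primary arrays, the 5 with the highest r were miR-652-5p (0.76), miR-29b-3p (0.69), miR-202-3p (0.66), miR-101b-3p (0.66) and miR-33-5p (0.65). The median r was 0.15. miR-144-3p, which is above background on too few arrays to enter this set, had a higher r (0.89) than any of the 189. The arrays share their scaling, so r describes likeness over 12 arrays and no more. After group means were removed, r with miR-451 was 0.82 for miR-652-5p, 0.34 for miR-29b-3p, 0.06 for miR-202-3p, -0.58 for miR-101b-3p and 0.34 for miR-33-5p. On that measure miR-144-3p, at 0.84, no longer led, since miR-3098-5p, named after its values were seen, was at 0.94 (0.49 before). Others among the 189 were also high there, such as miR-150-5p at 0.77 and miR-142-5p at 0.74, so the order depends on whether differences between groups are counted.

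miR-101a-3p is the closest relative of miR-144-3p in seed and is shown for that reason, with miR-101b-3p, which carries the same motif 1 base later.
miR-101a-3p (chr4:101346957-101346977, minus strand): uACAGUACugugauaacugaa
miR-101b-3p (chr19:29135338-29135356, plus strand): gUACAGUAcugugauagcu
miR-101a-3p has the first 7 bases of miR-144-3p and departs from it at the last seed base (U8C, counted from 1 at the 5′ end, with the base of miR-144-3p first). Both were called higher in DN than in DP, miR-101a-3p by 2.69 (adjusted p = 0.00600) and miR-101b-3p by 2.04 (3.43e-04) on the log2 scale. miR-101a-3p passed the filter only through DN and was at the floor on all 3 DP arrays, so its call gives no independent support, whereas miR-101b-3p was above background on all 12 primary arrays. Both were also called higher than DP in ES (1.65 and 1.57) and in LS (1.68 and 1.63). In single leukaemias their values were ordered differently from those of the cluster. On ES 2, where miR-451 was within the DP range, miR-101b-3p was at -4.29 against -6.48 to -5.84 in DP. On LS 2, where miR-451 was highest, it was at -4.71.

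Of the 7 listed red cell miRNAs, 4 were measured, the 3 members and miR-486-3p. miR-486-3p, from another erythroid locus, was above background on 0 of the 12 primary arrays, also on LS 2 and the DN arrays, and was above background on M295 (-5.84), where no member was. The other strand, miR-486-5p, was not analysed here, nor were the miR-486b forms. miR-16-5p and miR-92a-3p are abundant in red cells and in many other cells. miR-16-5p was called lower in DN than in DP (log2 difference -0.92, adjusted p = 0.00287). It was also called lower than DP in ES (-0.82, adjusted p = 0.00398) and in LS (-0.81, adjusted p = 0.00314). In T-ALL it was called lower than in thymocytes (-0.36, adjusted p = 0.0305). miR-92a-3p was not called in LS minus DP (-0.26) or T-ALL minus thymocytes (-0.43). The summed scaled signal of the red cell list was 75.4 to 102% of the 75th percentile in DN, 1.15 to 2.24% in DP, 1.58 to 38.9% in ES and 8.96 to 161% in LS. Most of it was miR-451 on these primary arrays. On M295 the sum was 2.52%, of which miR-451 made only 0.781%.

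Of 6 miRNAs known to fall in, or to restrain, erythroid maturation, 3 were tested. miR-155-5p was called lower in LS than in DP (-3.07, adjusted p = 0.0328) and in T-ALL than in thymocytes (-2.62, adjusted p = 0.0146). It was above background on 1 of 3 ES and 1 of 3 LS arrays and passed the filter only through DN and DP. The filter favours such calls, so they give no independent support. miR-24-3p was not called in either comparison (0.59 and 0.27). miR-223-3p was at 2.85 on ES 3 and at most -5.93 on the other 5 leukaemias. Of these 6 miRNAs, miR-221-3p was above background on 5 primary arrays, miR-222-3p on 1 and miR-191-5p on 0. miR-709, which has been reported with miR-451 as repressed downstream of Notch1, was called higher in LS than in DP (1.73, adjusted p = 0.00638), in ES than in DP (1.25, adjusted p = 0.0322) and in T-ALL than in thymocytes (1.37, adjusted p = 0.00337). Between DN and DP it was not called (0.23, adjusted p = 0.722).

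The markers of other cells were read on the leukaemias with most signal from the cluster. LS 2, highest for all 3 members, had miR-223-3p at -6.69 and miR-126-3p at the floor of -7.59. ES 3 had miR-223-3p at 2.85 and a summed myeloid signal of 723% of the 75th percentile, against at most 1.07% on any LS array. In T-ALL, miR-126-3p was above background on 0 of 6 arrays and at -1.47 from thymocytes (adjusted p = 0.00216), a call favoured by a filter that it passed only through DN. All 6 stromal miRNAs and the liver miRNA miR-122-5p were above background on 0 of the 12 primary arrays. Of the mature lymphocyte pair, miR-342-3p was called higher in LS than in DP (2.40, adjusted p = 4.65e-04) and miR-150-5p was not (-2.60, adjusted p = 0.0770). Of the T lineage list, miR-181a-5p was called lower in LS than in DP (-2.52, adjusted p = 0.00314), and miR-142-3p (-0.24) and miR-142-5p (-0.34) were not called. The part of the myeloid signal in the ES 3 values of miR-451 and miR-144-3p was not tested.

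**Figure D5:**
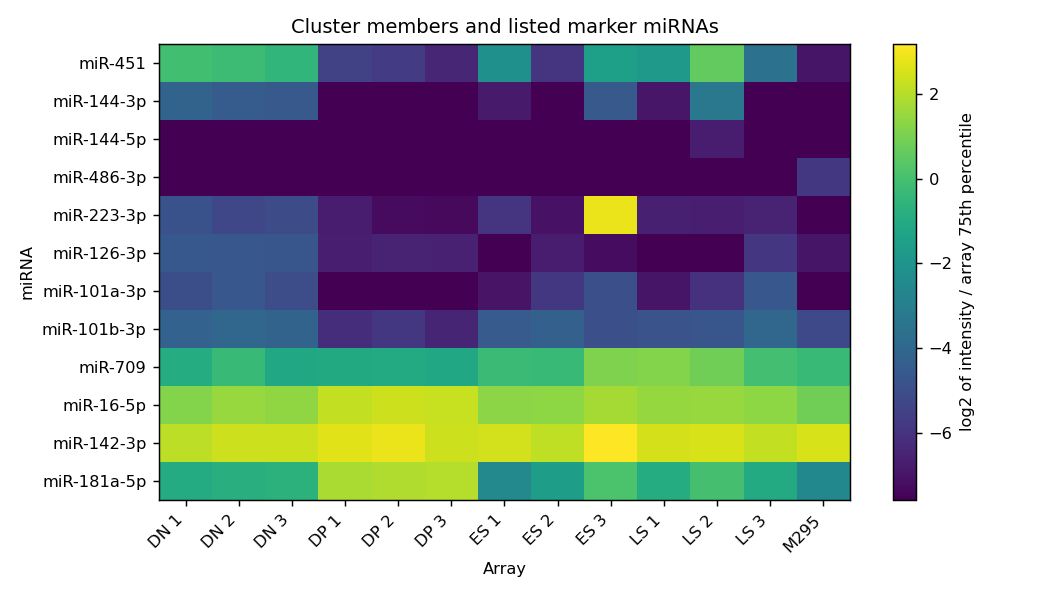
Signal of the 3 members and of 9 listed miRNAs on the 13 arrays, as colour on the scale of log2 of intensity over the array's 75th percentile, from the floor of -7.59 (dark) upward. miR-486-3p is at the floor on all primary arrays, miR-223-3p is bright on ES 3 only, and miR-126-3p is brightest on the DN arrays.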

How the data were processed

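Per the file headers, the authors read 1-colour Agilent scans with Feature Extraction 10.7.3.1; the deposited files hold a background-subtracted intensity per spot and a total intensity per miRNA, unscaled between arrays. The deposited values in the series' matrix are on the log2 scale with the same median, 3.29, in every column, with miRNAs ranked as by the total intensity of the same array. RMA, affy, MAS5 and GCOS are named, with no roles, in the submitters' processing notes.

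Control and outlier spots (4.03 to 8.60% per array) were removed, spots averaged per probe and probes per miRNA, each array divided by its 75th percentile, a floor set and log2 taken. No spot was saturated. One limma 3.58.1 fit held the 229 tested miRNAs and 12 primary arrays (R 4.3.3; data.table, version 1.17.8; 1 mean per group), with Benjamini-Hochberg adjustment over all 229 within a comparison and a threshold of 0.05; the script was tested on simulated data. A bound on the fold difference was given where 1 group was above background on all its arrays and the other on none. It sets each array of the dim group to the dimmest miRNA above background there, or to the member's own value, floor included, if that was higher. Hairpins were folded with RNAfold 2.7.2. The labels call the replicates biological; the precision is limited by 3 arrays per group, and M295 was left out of the fit.

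The members, lists and settings were chosen with earlier results of these data known. Listed miRNAs were named when called in LS minus DP or T-ALL minus thymocytes, or above background on all 12 primary arrays; the 5 miRNAs most like miR-451 were taken by Pearson's r. miR-486-3p, miR-223-3p, miR-221-3p, miR-222-3p, miR-191-5p, miR-150-5p, miR-126-5p, miR-223-5p and miR-122-5p fall outside this rule and were named after their values were seen. Same-numbered replicates did not deviate together (correlation above 0.1 in 6 of 18 pairs), so replicate numbers were not treated as pairs. The normexp alternative used median pixel signals, since no mean signal column was present.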

Additional observations from a re-analysis of the deposited data

Results flagged for a closer look

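miR-144-5p on LS 2 stood apart from the other 5 T-ALL arrays, at -6.72 on the log2 scale against the floor of -7.59 on each of them, with the gap equal to the whole range (ratio 1 by Dixon's measure). Chance flags about 1 in 20 such groups, and 5 tied values at the floor make the ratio reach its maximum. The scanner software's own detection mark, which the comparisons did not use, was set for miR-144-5p on LS 2 alone of the 13 arrays, with a total gene signal of 14.4 (error 3.46) against at most 4.32 on any other array.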

How the results depend on the processing

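The limits are 3 arrays per group, a miR-144-3p signal near background on most arrays, and a miR-144-5p signal that did not count as above background on any array. miR-451 DN minus DP kept its call in every setting that used both slides, and was 5.43 within slide 1. LS minus DP for miR-451 lost its call with no filter on dim miRNAs (4.31) and was 4.90 within slide 1. Without any 1 array it was 3.23 to 5.29 and called. ES minus DP for miR-451 was called when scaled over all mouse miRNAs (3.20), was 4.55 within slide 2, and ranged from 1.81 to 4.03 without 1 array. Without 1 array miR-451 was 0.13 to 1.36 in T-ALL minus thymocytes, 0.27 to 2.64 in LS minus ES, -3.82 to -1.59 in ES minus DN and -2.40 to -0.33 in LS minus DN, and miR-144-3p was 0.38 to 1.88 in ES minus DP, 0.33 to 2.49 in LS minus DP and -2.81 to -1.31 in ES minus DN, none called. miR-144-3p DN minus DP was not called with the floor 2-fold higher (2.19), no filter (3.19) or slide as a block (3.19). It was 3.44 within slide 1 and ranged from 3.07 to 3.28 without 1 array. With the replicate number as a block its difference was 3.19 and not called (adjusted p = 0.0650); the block ended no other call of the members, and 5 of 12 arrays correlated best with an array of their own number.

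Within slide 2, miR-451 was at -2.03 in LS minus ES, -1.17 in ES minus DN and -3.20 in LS minus DN, and miR-144-3p at 3.00 in ES minus DP, -3.00 in LS minus ES and -3.07 in LS minus DN. With 1 ES and 1 LS array there, no call is given. T-ALL minus thymocytes for miR-144-3p turned to 0.14 with normexp and 0.16 with the floor 2-fold lower, and ranged from -0.80 to 0.27 without 1 array. LS minus ES for miR-144-3p turned to -0.03 when scaled over all mouse miRNAs, which moves the median of all tested miRNAs there from 0.28 to -0.38, and ranged from -0.93 to 1.28. LS minus DN for miR-144-3p ranged from -2.87 to -0.71. miR-144-5p in T-ALL minus thymocytes turned to -0.01 with normexp (exact permutation p = 0.972) and -0.14 in the authors' deposited table (0.517). Its correlation with miR-451 was 0.55 within slide 1, 0.58 with group means removed and 0.82 in the deposited table; slide 2 gave no value, nor did the higher floor for miR-144-5p. The causes were not tested.

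The number of miRNAs called moved by over 1.5 times in some settings. Counts within a single slide are left out, since each slide leaves some groups with 1 array. In DN minus DP it was 67, but 42 with normexp, 44 with a filter of at least 6 arrays above background and 164 with only DN and DP in the fit. In LS minus DP it was 134 and in T-ALL minus thymocytes 131, and both moved this far only within slide 1. In ES minus DP it was 106, but 62 with only those groups. In LS minus DN it was 76, but 46 with normexp and 21 with no filter. In ES minus DN it was 15, and 0 to 42 over all settings with both slides. In LS minus ES it was 6, and 0 to 55 over those settings. Without 1 array the counts were 44 to 101 in DN minus DP, 99 to 164 in LS minus DP, 69 to 120 in ES minus DP and 32 to 117 in LS minus DN.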
